A study of Rattus norvegicus with 9 samples.

Results

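The genes described here encode potassium channels that stay open near the resting potential or that open on intracellular calcium or sodium: the tandem-pore leak channels (Kcnk), the inward rectifiers (Kcnj), the small- and intermediate-conductance calcium-activated channels (Kcnn), the large-conductance calcium-activated BK channel with its beta subunits (Kcnma and Kcnmb) and the sodium-activated channels (Kcnt). They were taken from the deposited count table by symbol, with the condition of at least 0.5 CPM (read counts scaled to a common library size, with TMM factors) in at least 3 libraries. Of 41 identifiers with such a symbol, 39 met it, out of 30446 genes in the table and 16627 tested, and all 39 passed the low-count filter of the test. They were 14 tandem-pore, 15 inward-rectifier, 4 Kcnn, 4 BK and 2 sodium-activated genes. The tissue was dorsal root ganglion (DRG), which holds the cell bodies of sensory neurons wrapped by satellite glia, dissected on both sides from T12 down to L6 in male Sprague-Dawley rats. There were 9 libraries in 3 groups of 3: naive rats, sham-operated rats and rats with spinal cord injury (SCI), each labelled day 30, the naive ones too. The series text calls the 3 libraries of a group biological replicates. How the injury and the sham surgery were done, the animals' ages and how many rats went into a library are unknown here.

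Potassium leak sets the resting potential of sensory neurons, and its loss makes them fire more easily. Tandem-pore channels carry much of that leak and respond to stretch, temperature, acid or G-protein signals. Inward rectifiers pass current best near rest: some are opened by G-protein beta-gamma subunits downstream of opioid and GABA receptors, some by low ATP, and Kcnj10 is the channel with which satellite glia, the cells that wrap each neuron, take up potassium. Calcium- and sodium-activated channels open after firing and shape the afterhyperpolarization that limits repetitive discharge.

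Library totals ran from 16724878 to 32060538 counts. The 12 neuronal markers checked, among them Tubb3, Prph, Scn9a and Scn10a, were all present, at a summed level of 33994 to 35535 CPM in naive, 33738 to 48842 in sham and 37530 to 38119 in SCI. They did not move as one: in both operated groups 3 of 12 (Uchl1, Stmn2, Prph) were higher than naive and 2 (Scn9a, Scn10a) lower. Scn9a, a sodium channel of nociceptors, had log2 changes of -1.47 in SCI and -1.43 in sham (SE 0.11 each), Scn10a of -0.55 and -0.53 (SE 0.09 each), and Prph of 0.35 and 0.41 (SE 0.10 each). The naive libraries stood apart from the 6 others on the first principal component (59.3% of the variance, scores of -43.5 to -41.6 against 14.2 to 25.7). An effect of surgery or injury cannot be told apart here from any handling that differed for the naive libraries, since the labels give no batch. Of 25 listed genes with exceptionally long open reading frames, such as Herc1 and Birc6, 21 were tested, and all 21 were lower than naive in SCI and all 21 in sham (median log2 changes -1.21 and -1.20). Of 28 tested identifiers of ribosomal proteins, which are short, 24 were higher than naive in SCI and 28 in sham (medians 0.67 and 0.73). The 10 Schwann cell markers summed to 30442 to 32160 CPM in naive and to 17870 to 23484 in the operated libraries, and the 6 fibroblast markers to 3704 to 4325 and 1922 to 3282 CPM; the part of cell content in the changes from naive was not tested. Both length lists were written after such a pattern had been seen in these data. The longest proteins among the potassium channels here are those of Kcnma1, Kcnt1 and Kcnt2, and the part of transcript length in any change from naive described below was not tested.

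No call separated cord injury from sham surgery in these channels. On the second principal component (11.2% of the variance) sham 1 to 3 scored -25.9, -10.9 and 26.2. SCI 1 to 3 scored 6.60, 1.75 and 1.63. In SCI against sham, 0 of the 39 genes passed an adjusted p of 0.05 in edgeR's quasi-likelihood test, as did 0% of all genes tested, and DESeq2 and limma-voom also called 0 of the 39. At an unadjusted p under 0.05 there was 1 of 39, Kcnn2, against 3.16% of all genes. The log2 changes ran from -0.41 to 0.47 with a median of -0.02, where the median of all genes was -0.00078. Libraries of the 2 groups did not overlap for 3 of 39 genes (6.41% of all genes), and in all 3, Kcnn2, Kcnk13 and Kcnj2, SCI lay below sham. For the 17 genes with a mean of at least 10 CPM, the 95% intervals of the log2 change lay within -0.43 and 0.37, both bounds being those of Kcnj3. Changes beyond 0.745- to 1.29-fold thus lay outside the intervals of these 17 genes, while for genes of fewer counts the intervals were wider. The 12 skeletal muscle markers found summed to 142 to 163 CPM in sham, 67.7 to 105 in SCI and 68.4 to 110 in naive, 8 of 12 being called higher in sham than in naive. In SCI against sham their median log2 change was -0.89 with 0 of 12 called, and their part in the channel levels of sham was not tested.

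The 5 genes with the smallest p in SCI against sham were Kcnn2, Kcnj6, Kcnk13, Kcnma1 and Kcnj14, none of which passed (edgeR adjusted p = 0.9999 for each). Kcnn2 encodes a small-conductance channel opened by calmodulin-bound calcium. It stood at 5.04, 4.94 and 5.36 CPM in SCI 1 to 3, at 6.46, 6.48 and 5.65 in sham 1 to 3 and at 6.84, 6.67 and 5.65 in naive 1 to 3. All 3 SCI libraries lay below all 6 others, with a log2 change against sham of -0.28 (SE 0.12, 95% interval -0.55 to -0.01, unadjusted p = 0.0428 in edgeR). Kcnj6, a subunit of the G-protein-gated channel, stood at 3.52, 3.11 and 2.45 CPM in SCI, 2.46, 2.20 and 2.33 in sham and 2.71, 3.65 and 2.95 in naive. Its sham libraries lay below every naive library and overlapped SCI 3, and the log2 change SCI against sham was 0.38 (SE 0.18). Kcnk13, a halothane-inhibited leak channel known from microglia and macrophages, stood at 1.27, 1.43 and 1.45 CPM in SCI and 1.73, 1.61 and 1.93 in sham (log2 change -0.35, SE 0.20). The naive libraries held 1.37, 1.01 and 0.931 CPM, so that sham was highest of the 3 groups without overlap. This gene rests on 27 to 47 counts per library.

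**Figure D1:**
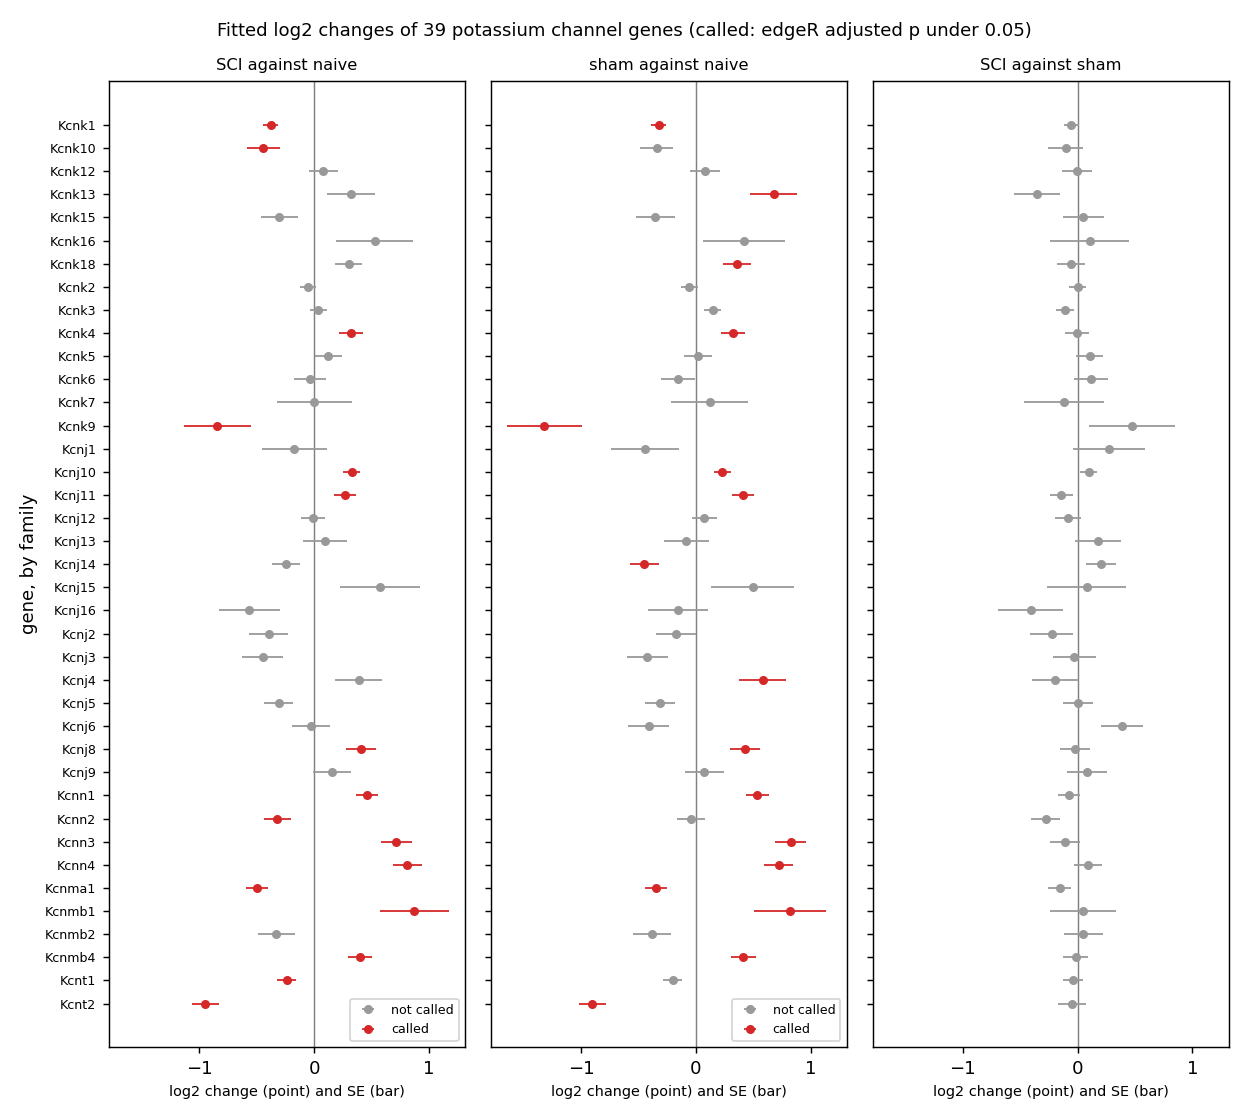
Fitted log2 change (point) and its standard error (bar) of each of the 39 genes in SCI against naive, sham against naive and SCI against sham, with genes ordered by family on the vertical axis. Red points passed an adjusted p of 0.05, which holds for 16 genes in the left panel, 17 in the middle panel and 0 in the right panel, where the points lie between -0.41 and 0.47.

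Against naive ganglia, Kcnn1, Kcnn3, Kcnn4 and Kcnmb4 were higher and Kcnt2, Kcnma1 and Kcnk1 lower in both operated groups, each call holding under every alternative run. In SCI against naive 16 of 39 genes were called, 9 higher and 7 lower (41.0%, where 48.5% of all genes tested were called, 23.9% higher and 24.6% lower). In sham against naive 17 were called, 12 higher and 5 lower (43.6%, where 50.6% of all genes were called, 24.7% higher and 25.9% lower). These shares are near those of all genes. Libraries of the groups did not overlap for 23 of 39 genes in SCI against naive (64.1% of all genes) and for 19 in sham against naive (56.7%). At an unadjusted p under 0.05 there were 20 (54.8% of all genes) and 23 (56.3%). Called in both comparisons were 13 genes, 9 higher and 4 lower, while 3 were called in SCI against naive only, 4 in sham against naive only and 19 in neither. The matching shares of all genes tested were not counted, so this overlap is not read as a trait of these channels. The 2 comparisons share the naive libraries, and SCI against sham, which is the test of their difference, called none. The counts fell to 10 in SCI against naive without SCI 3 and to 11 in sham against naive without naive 3. Kcnmb1 and Kcnk9 reached 0.5 CPM in 4 libraries each and Kcnk16 in 7, whereas Kcnmb3, with 0 to 2 counts per library, and a second Kcnk6 identifier without counts lay outside the rule. Since Kcnmb1 met the rule in sham and SCI libraries only, and Kcnk9 in the naive libraries and SCI 1, their differences are partly fixed by it. Among the 34 genes with a mean of at least 1 CPM, 14 were called in SCI against naive and 15 in sham against naive.

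**Figure D2:**
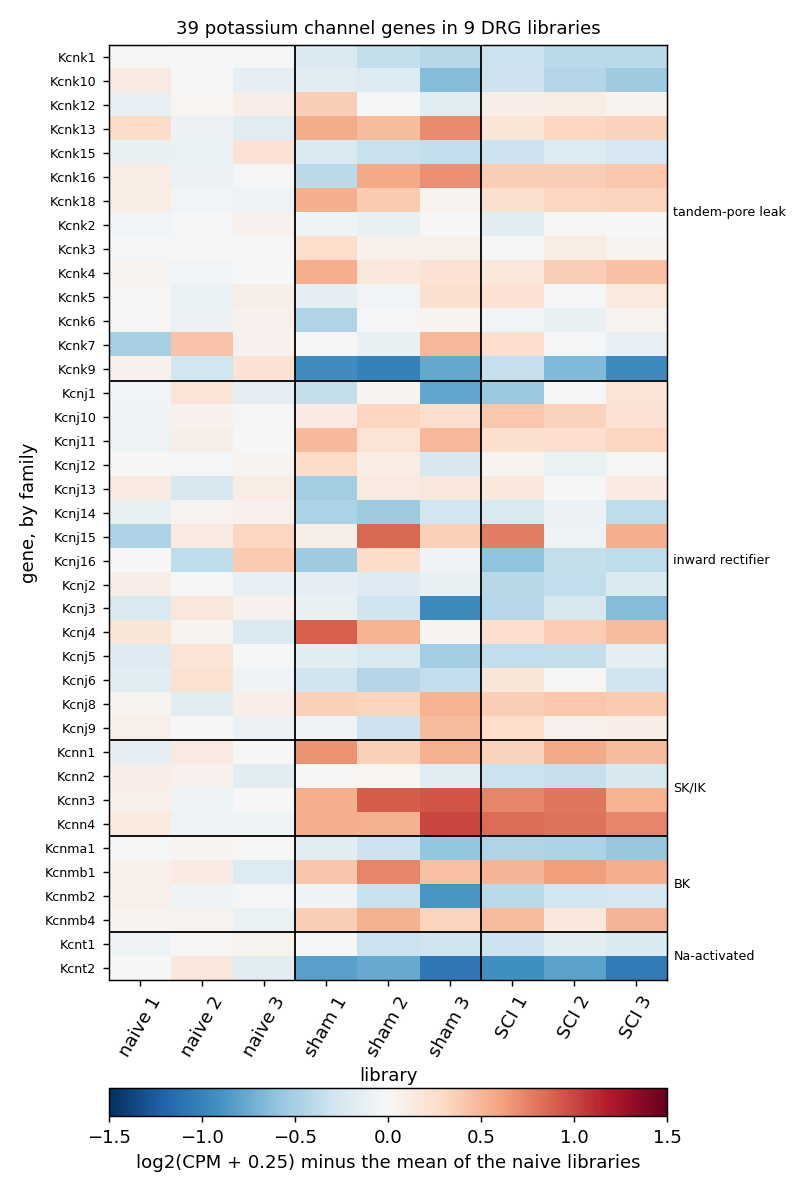
Each row is 1 of the 39 genes, grouped by family, and each column 1 library; color gives log2(CPM + 0.25) minus the mean of the 3 naive libraries. Kcnn1, Kcnn3 and Kcnn4 are red and Kcnt2 is blue in all 6 operated libraries.

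Promoters of the channels were looked up to show what lies upstream of genes that moved in opposite directions. The genes printed were chosen after their changes were seen. Others that moved, such as Kcnma1 and Kcnmb4, also had entries and are not printed. The calls of Kcnj8, and that of Kcnj10 in sham, were lost in some alternatives, as given below. RefSeq promoter entries (assembly GRCr8, since the build of the counts is unknown here) existed for 27 of the 39 genes, with 30 start sites. The GC box (GGGCGG, read on both strands), the site of Sp factors, occurred in the 250 bases before 12 of these 30 starts (40.0%) and before 30.5% of all 33469 starts. The full cAMP response element (TGACGTCA) occurred in 0 of 30 and in 1.59% of all, and the AP-1 site (TGANTCA, both strands) in 1 of 30, that of Kcnj16, and in 6.34% of all. The next lines give the 250 bases before the start of Kcnt2 (chr13:54215057-54215306, plus strand), which was lower than naive in both operated groups, and of Kcnn3 (chr2:177234090-177234339, plus strand), Kcnj8 (chr4:177246549-177246798, minus strand) and Kcnj10 (chr13:87334260-87334509, plus strand), which were higher. They are written 5′ to 3′ in the direction of the gene with GC boxes in capitals, of which Kcnt2 and Kcnj8 have 1 each, Kcnj10 has 2 and Kcnn3 has 0.
Kcnt2: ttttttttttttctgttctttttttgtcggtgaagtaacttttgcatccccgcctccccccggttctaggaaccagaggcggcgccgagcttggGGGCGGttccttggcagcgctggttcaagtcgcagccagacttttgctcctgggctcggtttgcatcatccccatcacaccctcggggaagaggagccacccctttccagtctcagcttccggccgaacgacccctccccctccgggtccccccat
Kcnn3: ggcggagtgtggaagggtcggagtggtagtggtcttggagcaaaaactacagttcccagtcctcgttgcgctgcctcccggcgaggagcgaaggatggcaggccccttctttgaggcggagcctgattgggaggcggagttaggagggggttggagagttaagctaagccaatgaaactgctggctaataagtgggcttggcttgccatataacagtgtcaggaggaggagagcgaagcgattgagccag
Kcnj8: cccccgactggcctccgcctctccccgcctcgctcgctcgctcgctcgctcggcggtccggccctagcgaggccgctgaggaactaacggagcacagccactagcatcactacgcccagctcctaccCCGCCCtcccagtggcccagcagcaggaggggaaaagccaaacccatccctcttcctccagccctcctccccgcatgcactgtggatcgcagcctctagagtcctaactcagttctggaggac
Kcnj10: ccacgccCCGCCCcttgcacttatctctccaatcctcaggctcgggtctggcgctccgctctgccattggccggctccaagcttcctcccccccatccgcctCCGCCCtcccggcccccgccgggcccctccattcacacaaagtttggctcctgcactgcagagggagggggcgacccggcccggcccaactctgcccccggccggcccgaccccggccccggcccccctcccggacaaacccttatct
The GC content was 59.2% for Kcnt2, 57.2% for Kcnn3, 66.8% for Kcnj8 and 72.4% for Kcnj10, against a median of 59.4% over the 30 starts of these channels and 51.2% over all starts. A match of letters is a description and not a measured binding site.

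In the Kcnn family, 3 of 4 genes were higher than naive in both operated groups and 1 was lower in SCI, where 48.5% of all genes were called in SCI against naive and 50.6% in sham against naive; differences between families were not tested. Kcnn4 encodes the intermediate-conductance channel, known from red cells, lymphocytes and macrophages and also present in sensory neurons. It stood at 9.51, 8.15 and 8.22 CPM in naive, 12.7, 12.6 and 17.5 in sham and 15.6, 15.4 and 14.5 in SCI. Every operated library lay above every naive one, and the log2 change was 0.81 (SE 0.13, edgeR adjusted p = 0.000170) in SCI and 0.72 (SE 0.13, adjusted p = 0.000401) in sham. The 10 macrophage markers, all present, summed to 187 to 217 CPM in naive, 212 to 338 in sham and 258 to 269 in SCI. They did not move as one: in both operated groups 6 were called higher than naive and 2 (Ptprc and Cd163) lower. The 3 red cell markers found summed to 265 to 380 CPM in naive, 125 to 221 in sham and 166 to 323 in SCI. The part of these cells in the Kcnn4 level was not tested. In bulk RNA a change in the share of a cell type and a change of RNA per cell cannot be told apart.

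Kcnn3, a small-conductance channel of neurons and vessel walls, stood at 5.21, 4.72 and 4.91 CPM in naive, 7.31, 9.46 and 9.77 in sham and 8.37, 8.80 and 7.18 in SCI. Its groups did not overlap with naive, with log2 changes of 0.72 (SE 0.13, edgeR adjusted p = 0.000705) in SCI and 0.83 (SE 0.13, adjusted p = 0.000220) in sham. Kcnn1, the other small-conductance channel that was higher, stood at 16.6, 20.01 and 18.2 CPM in naive, 29.3, 23.4 and 26.5 in sham and 23.3, 27.1 and 25.4 in SCI. All operated libraries again lay higher, by 0.46 (SE 0.10) in SCI and 0.54 (SE 0.10) in sham on the log2 scale. Kcnn2 did not follow them: its level in SCI was below naive (-0.32 on the log2 scale, SE 0.12, edgeR adjusted p = 0.0415), a call lost in 10 of 17 alternatives, DESeq2 among them, while in sham it overlapped naive. Within a library the ratio of 2 genes does not depend on scaling. All ratios given here and below were chosen after their values were seen, so a separation of the groups is partly fixed by that choice. The Kcnn3 count was 0.762, 0.708 and 0.869 times the Kcnn2 count in naive 1 to 3, 1.13, 1.46 and 1.73 times in sham and 1.66, 1.78 and 1.34 times in SCI, without overlap between naive and operated libraries. Of the 7 partner genes of these channels, which are opened through bound calmodulin and tuned by casein kinase and a phosphatase, 2 were higher and 1 lower in SCI than in naive, and 3 higher and 1 lower in sham, near the 48.5% and 50.6% of all genes called. Calm3, a calmodulin gene, had 794 CPM in naive, 1304 in sham and 1191 in SCI as group means (log2 changes 0.72 and 0.59 in sham and SCI, SE 0.08 each), and Csnk2b, the regulatory subunit of casein kinase, had log2 changes of 0.56 in sham and 0.52 in SCI (SE 0.06 each).

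**Figure D3:**
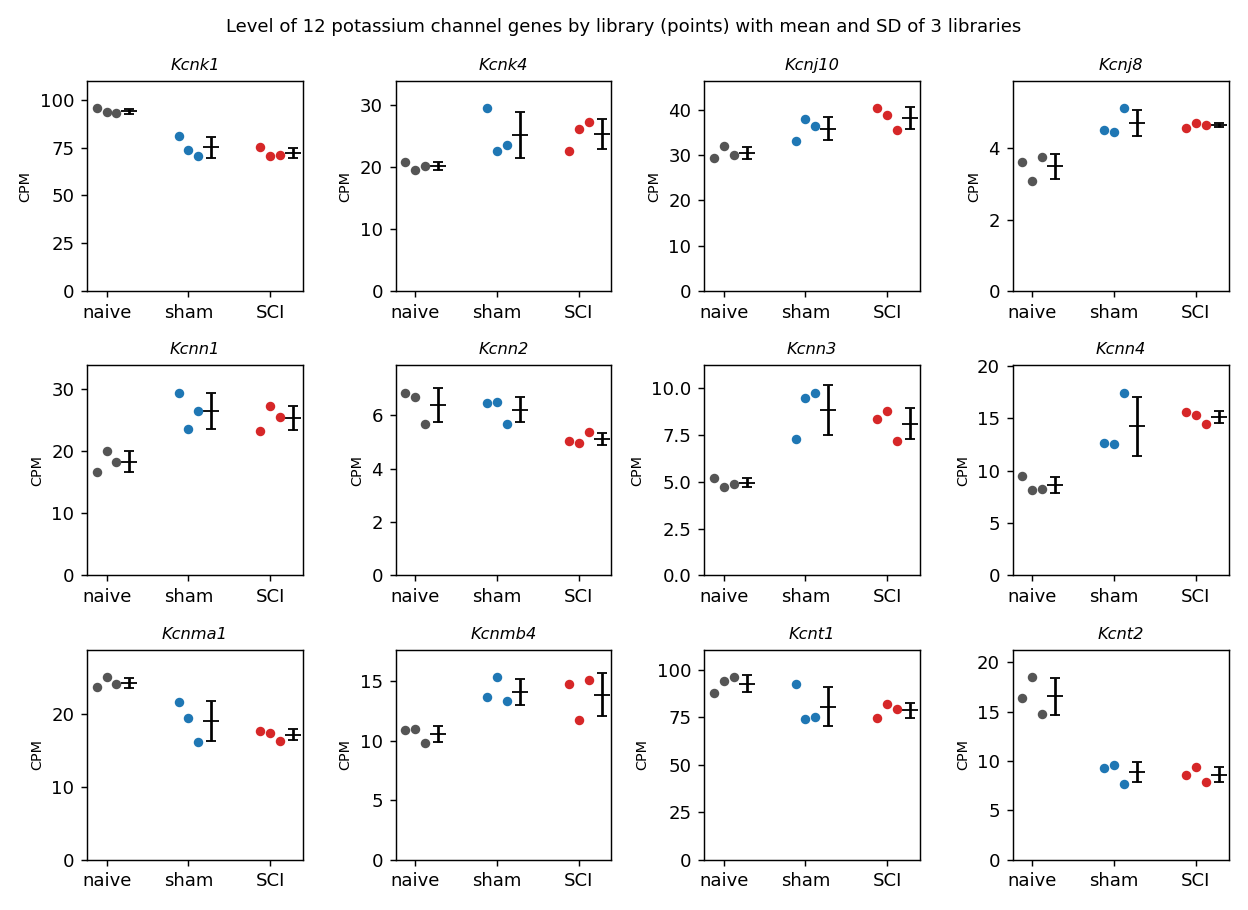
Level in CPM (vertical axis, from 0) of 12 genes in each naive, sham and SCI library (points), with the mean and SD of 3 libraries beside them. Kcnn1, Kcnn3 and Kcnn4 lie higher and Kcnt2 and Kcnma1 lower in all operated libraries than in naive ones, and Kcnn2 is lowest in the SCI libraries.

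In the sodium-activated pair, Kcnt2 had the smallest p of all 39 genes in both comparisons with naive. These channels let potassium out once sodium has entered during firing and are abundant in sensory neurons. Kcnt2 fell from 16.3, 18.5 and 14.8 CPM in naive to 9.29, 9.64 and 7.69 in sham and 8.62, 9.34 and 7.82 in SCI. The groups lay far apart from naive, with log2 changes of -0.95 (SE 0.12, edgeR adjusted p = 2.86e-05) in SCI and -0.90 (SE 0.12, adjusted p = 3.82e-05) in sham, and both calls held in all 17 alternatives. Kcnt1 stood at 88.0, 94.1 and 96.2 CPM in naive, 92.3, 74.3 and 75.3 in sham and 74.5, 82.1 and 79.5 in SCI. It was lower in SCI (log2 change -0.24, SE 0.08, adjusted p = 0.0294), a call lost without naive 2, naive 3, SCI 1 or SCI 3, and not in sham (adjusted p = 0.0609), where sham 1 lay within the naive range. The Kcnt2 count was 0.186, 0.197 and 0.154 times the Kcnt1 count in the naive libraries and 0.0984 to 0.130 times in the 6 operated ones, without overlap. Both encode long proteins of like architecture, and the part of length in these changes was not tested.

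The BK channel showed opposite differences in its pore and in a beta subunit. Kcnma1, the pore-forming alpha subunit, which opens on calcium and depolarization together, stood at 23.8, 25.1 and 24.1 CPM in naive, 21.7, 19.5 and 16.2 in sham and 17.7, 17.5 and 16.4 in SCI. All operated libraries lay below naive (log2 changes -0.50, SE 0.10, edgeR adjusted p = 0.000800 in SCI and -0.34, SE 0.10, adjusted p = 0.00875 in sham), and SCI lay within the sham range. The sham change was -0.23 without sham 3, still called. Kcnmb4, the neuronal beta subunit, which slows the channel and makes it resistant to iberiotoxin, stood at 10.9, 10.95 and 9.79 CPM in naive, 13.7, 15.3 and 13.3 in sham and 14.7, 11.8 and 15.1 in SCI. It lay above naive in every operated library, by 0.40 (SE 0.11, adjusted p = 0.00796) in SCI and 0.42 (SE 0.11, adjusted p = 0.00639) in sham. The Kcnmb4 count was 0.406 to 0.458 times the Kcnma1 count in naive, 0.631 to 0.820 times in sham and 0.672 to 0.922 times in SCI. Kcnmb2, a beta subunit that inactivates the channel, stood at 7.24 to 7.96 CPM in naive, 4.02 to 7.27 in sham and 5.65 to 6.32 in SCI and was not called. Kcnmb1, the beta subunit of smooth muscle, was seen at 7 to 17 counts per library, 0.225 to 0.346 CPM in naive against 0.477 to 0.654 in sham and 0.525 to 0.593 in SCI, and its call in sham (adjusted p = 0.04997) was lost in 13 of 16 alternatives and that in SCI (adjusted p = 0.0285) in 7 of 16. Kcnmb1 reached 0.5 CPM in sham and SCI libraries only, so these calls are partly fixed by the rule of the gene group. The 8 mural cell markers, all present, summed to 255 to 277 CPM in naive, 295 to 405 in sham and 322 to 342 in SCI, and their part in the Kcnmb1 difference was not tested. Of 5 tested partners of BK, 1 was higher and 2 lower in SCI than in naive, and 1 higher and 1 lower in sham, where 48.5% and 50.6% of all genes were called. Lingo1, a membrane protein that associates with BK, was higher (log2 changes 0.43 in sham and 0.33 in SCI, SE 0.10 each). In the other direction, the RNA-binding protein gene Fmr1, whose product binds Kcnmb4, had group means of 60.8 CPM in naive, 34.2 in sham and 35.4 in SCI (log2 changes -0.83 and -0.78 in sham and SCI, SE 0.08 each).

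Among inward rectifiers, 3 of 15 genes were called in SCI against naive, all higher, and 5 in sham against naive, 4 higher and 1 lower (20% and 33.3%, below the 48.5% and 50.6% of all genes). Kcnj10, the glial potassium uptake channel, stood at 29.4, 31.9 and 30.0 CPM in naive, 33.1, 38.0 and 36.3 in sham and 40.3, 38.8 and 35.5 in SCI. All operated libraries lay above naive, by 0.33 (SE 0.08, edgeR adjusted p = 0.00288) in SCI and 0.23 (SE 0.08, adjusted p = 0.0217) in sham, where the call was lost without naive 1, naive 3 or sham 2. The 10 satellite glia markers, all present, summed to 4967 to 5154 CPM in naive, 7906 to 10592 in sham and 8449 to 9477 in SCI. Of these 10, 3 were called higher in SCI than in naive (Fabp7 with a log2 change of 1.23, Apoe with 0.98 and Ptgds with 0.85), 1 was lower (Cdh19 with -0.89) and 6 were not called. In sham the same 3 were higher (1.18, 1.03 and 0.47), and Cdh19 (-0.97) and Gfap (-0.68) were lower. Apoe made up most of the sum, with group means of 3388 CPM in naive, 6943 in sham and 6664 in SCI. Kcnj10, which is not among the 10 markers, had 5.74 to 6.43 CPM per 1000 CPM of that sum in naive. In the operated libraries it had 3.43 to 4.77, a ratio that depends mostly on Apoe. The part of glial content in the Kcnj10 level was not tested.

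The ATP-sensitive channels pair an inward rectifier with a sulfonylurea receptor, and the genes of each pair are neighbours in the rat genome. Kcnj8, the pore of the vascular type, stood at 3.62, 3.08 and 3.76 CPM in naive, 4.52, 4.46 and 5.11 in sham and 4.57, 4.69 and 4.64 in SCI. It was higher by 0.41 (SE 0.13, edgeR adjusted p = 0.0181) in SCI and 0.43 (SE 0.13, adjusted p = 0.0147) in sham, and both calls were lost without naive 2. Its receptor and neighbour Abcc9 went the other way: it stood at 13.4, 13.0 and 14.3 CPM in naive, 7.71, 7.44 and 7.98 in sham and 7.88, 7.71 and 7.68 in SCI, with log2 changes of -0.80 (SE 0.09, adjusted p = 1.44e-05) in SCI and -0.81 (SE 0.09, adjusted p = 1.18e-05) in sham. The Kcnj8 count was thus 0.237 to 0.270 times the Abcc9 count in naive and 0.580 to 0.640 times in the operated libraries. Kcnj11, the pore of the neuronal and beta-cell type, stood at 10.6, 11.9 and 11.1 CPM in naive, 15.8, 12.9 and 15.9 in sham and 13.3, 13.4 and 14.002 in SCI. It was higher than naive in SCI by 0.27 (SE 0.10, adjusted p = 0.0330), a call lost in 5 of 17 alternatives, and in sham by 0.41 (SE 0.10, adjusted p = 0.00320). Its receptor Abcc8 had group means of 14.9, 12.6 and 13.3 CPM in naive, sham and SCI and was not called. The Kcnj11 count was 0.734 to 0.764 times the Abcc8 count in naive, 1.12 to 1.31 times in sham and 0.922 to 1.13 times in SCI. Both receptors are much longer proteins than their pores, and the part of length in these ratios was not tested.

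**Figure D4:**
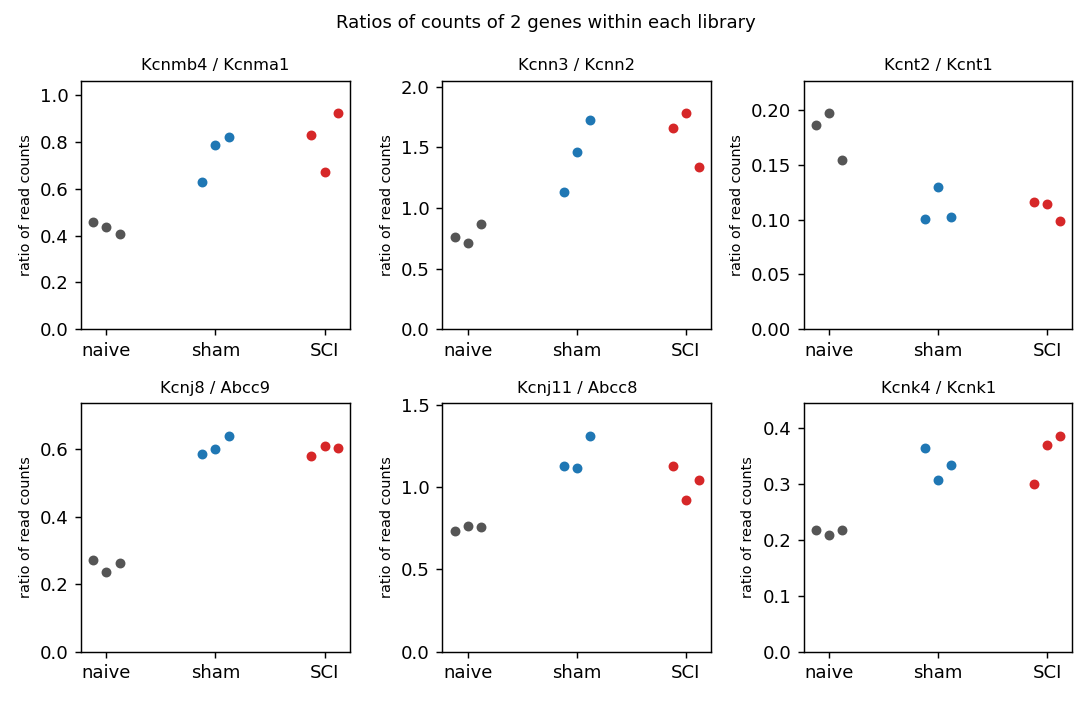
Ratio of the read counts of 2 genes within each naive, sham and SCI library (vertical axis, from 0), which is free of library scaling. In each of the 6 pairs the naive libraries lie apart from the operated ones, with Kcnj8 at 0.237 to 0.270 times Abcc9 in naive and at 0.580 to 0.640 times in sham and SCI. The pairs were chosen after their values were seen, so this separation is partly fixed by the choice.

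The G-protein-gated subunits, which carry the opioid and GABA-B inhibition of neurons, gave no call. Kcnj3 stood at 13.7, 18.2 and 16.9 CPM in naive, 14.9, 13.1 and 8.23 in sham and 11.99, 13.6 and 10.2 in SCI (edgeR adjusted p = 0.0510 in SCI and 0.0649 in sham against naive). All SCI libraries lay below naive, and sham 1 lay within the naive range. Kcnj5 had group means of 12.7, 10.2 and 10.3 CPM in naive, sham and SCI, Kcnj6 of 3.11, 2.33 and 3.03, and Kcnj9 of 5.67, 5.95 and 6.29. Their partner list of 15 G-protein subunits and regulators had 5 genes higher and 4 lower in SCI than in naive, and 5 higher and 3 lower in sham, near the 48.5% and 50.6% of all genes called. Gng3, a neuronal gamma subunit, had group means of 261, 430 and 405 CPM in naive, sham and SCI (log2 changes 0.72 and 0.63 in sham and SCI, SE 0.07 each).

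The strong inward rectifiers behaved unevenly. Kcnj4 stood at 3.18, 2.86 and 2.34 CPM in naive, 5.398, 4.10 and 2.88 in sham and 3.37, 3.71 and 3.96 in SCI. In sham it was higher than naive (by 0.58 on the log2 scale, SE 0.21, edgeR adjusted p = 0.0302), although sham 3 overlapped naive, and without sham 1 the change was 0.30 and the call was lost. Kcnj14 stood at 6.22, 7.05 and 7.06 CPM in naive, 4.81, 4.58 and 5.504 in sham and 5.72, 6.37 and 5.14 in SCI. It was lower in sham (log2 change -0.45, SE 0.13, adjusted p = 0.00953), while in SCI it lay between and overlapped naive (adjusted p = 0.119). Kcnj12 had 24.7, 26.0 and 24.5 CPM in naive, sham and SCI and Kcnj2 had 1.74, 1.54 and 1.33, neither of them called. The transport-type rectifiers Kcnj1, Kcnj13, Kcnj15 and Kcnj16, known from kidney, epithelia and glia, stayed between 0.398 and 3.72 CPM in all libraries and were not called. The scaffold list of these channels had 2 genes higher and 6 lower of 9 in SCI and 2 higher and 5 lower in sham, where 24.6% and 25.9% of all genes were lower and 23.9% and 24.7% higher. Dlg4, which anchors inward rectifiers at synapses, had group means of 116, 191 and 186 CPM in naive, sham and SCI (log2 changes 0.72 and 0.67 in sham and SCI, SE 0.07 each).

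Tandem-pore leak channels had 4 of 14 genes called in SCI against naive, 1 higher and 3 lower, and 5 in sham against naive, 3 higher and 2 lower (28.6% and 35.7%, against 48.5% and 50.6% of all genes). Kcnk1, a weak leak channel, had the most counts of this family (1236 to 2978 per library). It fell from 95.5, 93.7 and 93.0 CPM in naive to 81.0, 73.5 and 70.7 in sham and 75.3, 70.8 and 71.0 in SCI. The groups did not overlap naive, and the log2 changes of -0.38 (SE 0.06, edgeR adjusted p = 0.000347) in SCI and -0.32 (SE 0.06, adjusted p = 0.000978) in sham held their calls in all 17 alternatives.

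The stretch- and heat-gated members did not move alike. Kcnk4 stood at 20.8, 19.6 and 20.2 CPM in naive, 29.5, 22.5 and 23.6 in sham and 22.6, 26.1 and 27.4 in SCI. It was higher by 0.32 (SE 0.10, edgeR adjusted p = 0.0197) in SCI and 0.33 (SE 0.10, adjusted p = 0.0183) in sham, without overlap, but the SCI call was lost in 4 of 17 alternatives and the sham call in 3, with a sham change of 0.19 without sham 1. Kcnk10 stood at 7.70, 7.02 and 6.39 CPM in naive, 6.21, 6.07 and 4.36 in sham and 5.59, 5.09 and 4.77 in SCI, lower than naive in SCI (log2 change -0.44, SE 0.14, adjusted p = 0.0206; lost in 4 of 17 alternatives) and not called in sham (adjusted p = 0.0656). Kcnk2, the third of this kind, had 34.0, 32.7 and 32.8 CPM in naive, sham and SCI and was not called. The Kcnk4 count was 0.209 to 0.218 times the Kcnk1 count in naive and 0.300 to 0.386 times in the operated libraries. Against the Kcnk2 count it was 0.567 to 0.632 times in naive, 0.691 to 0.910 times in sham and 0.747 to 0.808 times in SCI.

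Among acid-sensitive leak channels, Kcnk3 had 21.5, 23.8 and 22.1 CPM in naive, sham and SCI and was not called. Kcnk9, its closest relative, was barely detected, at 21 to 32 counts in the naive libraries, 5 to 9 in sham and 7 to 20 in SCI. It stood at 0.904, 0.661 and 1.03 CPM in naive, 0.330, 0.297 and 0.397 in sham and 0.618, 0.445 and 0.318 in SCI. It was lower in sham (log2 change -1.32, SE 0.33, edgeR adjusted p = 0.00433) and in SCI (-0.84, SE 0.29, adjusted p = 0.0288), where the call was lost in 5 of 16 alternatives. Kcnk9 reached 0.5 CPM only in the naive libraries and SCI 1, so these calls are partly fixed by the rule of the gene group. Both are in the counts of lower leak channels above. Kcnk18, the calcineurin-regulated channel of nociceptors linked to migraine, stood at 10.3, 9.16 and 8.99 CPM in naive, 13.9, 12.5 and 9.82 in sham and 11.2, 11.9 and 11.96 in SCI. It was higher in sham (log2 change 0.36, SE 0.12, adjusted p = 0.0255), although sham 3 overlapped naive and the change was 0.22 and not called without sham 1. All SCI libraries lay above naive, with an adjusted p of 0.0539 in edgeR. Kcnk13 was higher than naive in sham (log2 change 0.68, SE 0.20, adjusted p = 0.0133, lost without naive 3). The remaining members Kcnk5, Kcnk6, Kcnk7, Kcnk12, Kcnk15 and Kcnk16 were called in neither comparison, with Kcnk12 at 9.82 to 14.5 CPM, Kcnk5 at 8.41 to 11.1 and Kcnk7 and Kcnk16 at 0.330 to 1.04. Of 14 partners of these channels, 3 were higher and 2 lower in SCI than in naive, and 4 higher and 2 lower in sham, where 48.5% and 50.6% of all genes were called. Map2, a microtubule protein that carries Kcnk2 to the membrane, had group means of 139, 71.5 and 77.3 CPM in naive, sham and SCI (log2 changes -0.96 and -0.85 in sham and SCI, SE 0.10 each).

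Over all 52 tested partner genes, 0 were called in SCI against sham, 13 higher and 16 lower in SCI against naive and 15 higher and 13 lower in sham against naive, with medians of -0.01, -0.05 and -0.03 on the log2 scale. These counts are near the shares of all genes called, 0%, 48.5% and 50.6%.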

How the data were processed

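RNA was measured in rat dorsal root ganglia in 9 libraries (3 naive, 3 sham, 3 SCI), grouped by their titles. Per the labels' protocols, paired-end TruSeq libraries were made from total RNA, a kit that does not mark strand. Reads over overlapping antisense genes could thus not be assigned by strand. The submitters' processing notes name FastQC, Trimmomatic, TopHat2, HTSeq and DESeq2, without versions; the genome build is unknown here. The authors deposited raw, whole-number counts per gene, with library totals of 16724878 to 32060538.

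Tests used edgeR's quasi-likelihood method (version 4.0.16, R 4.3.3) after TMM scaling and filterByExpr filtering, with 1 mean per group. All 9 libraries entered 1 model, leaving 6 residual degrees of freedom. Adjustment was Benjamini-Hochberg over the 16627 genes tested, with calls under 0.05. Scripts were tested on simulated data. In 5 simulated runs of SCI against sham, with 200 changed genes each, 17.2% of 1.25-fold changes were recovered. The share was 66% at 1.5-fold, 86% at 2-fold and 97.2% at 4-fold, with a mean of 9 false calls per run. Changes of 1.25-fold were thus mostly missed. The members and lists were chosen with earlier results of these data known. Genes given library by library are those called, that with the most counts in each family, and the 5 of smallest p in SCI against sham. The rule asked for levels per coding length, but lengths were not used here, so counts stood in and levels are not compared between genes. Up to 6 called partner genes of smallest p were named. Abcc8, Abcc9, Lingo1, the single markers given with values, Herc1, Birc6, Kcnj2, Kcnj3 and Kcnmb2 were chosen after their values were seen. So were all ratios of genes and the genes whose promoters are printed. Alternatives were DESeq2 (version 1.42.0), limma-voom (limma version 3.58.1), RLE or upper-quartile scaling, no filter, a strict filter (1 CPM in all 9 libraries), fits of only the groups compared, a replicate block and leaving out each library. The group of genes with a mean of at least 1 CPM was added after seeing the data.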

Additional observations from a re-analysis of the deposited data

How the results depend on the processing

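The counts of called channels kept within 1.5 times their value, with 0 in SCI against sham throughout, except when single libraries were left out. In SCI against naive (16) those counts ran from 10 (without SCI 3) to 20, and in sham against naive (17) from 11 (without naive 3) to 19. Other alternatives gave 14 to 22 and 14 to 19. DESeq2 called 0, 14 and 16 in SCI against sham, SCI against naive and sham against naive. No named change reversed. The share of all genes called in SCI against sham, 0% in edgeR, was 0.0541% with DESeq2 and 0.131% without sham 3, and 0.0452% with no low-count filter. With 0.25 or 1 CPM as the floor, 39 and 35 genes met the rule. Libraries with the same replicate number showed no sign of deviating together. Their correlations were -0.095 to 0.124 over 9 pairs, 1 of them over 0.1, and 0 of 9 libraries correlated best with their own number. Deviations from means of 3 libraries cannot exclude a pairing by number. With a replicate block the counts were 0, 16 and 18. A correction for protein length was not run, since lengths were not used here. The 5 genes with a mean under 1 CPM rest on 5 to 41 counts per library, and differences there were not detectable unless large.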
